A study of Arabidopsis thaliana with 8 samples.

Results

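GID1A (AT3G05120), GID1B (AT3G63010) and GID1C (AT5G27320) are the gibberellin receptor genes of Arabidopsis thaliana. They were taken as the probe sets that name 1 of them alone in the array's annotation table. This gave 3 probe sets, 1 for each gene, of 22810 on the array, 13513 of which name a single gene. The array IDs are 259302_at for GID1A, 251200_at for GID1B and 246782_at for GID1C.

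Gene expression was measured on 8 single-colour arrays from etiolated seedlings of wild-type Col-0, frozen at 3 days of age. The labels name no organ. The ethylene group was kept in air in the dark for 68 h and then received 10 ppm of the gaseous hormone ethylene for 4 h, and the air group was kept in the dark for 72 h. Each group had 4 arrays, with 2 replicas in each of 2 experiments, and an array is called by its experiment and replica (ethylene 1-2 is the second replica of experiment 1). No label says that the replicas were separate cultures, so p-values measure only the spread between these samples, which may be technical.

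Gibberellin is a hormone of stem elongation. Its receptors are soluble nuclear and cytosolic proteins with the fold of plant carboxylesterases, and a receptor that has bound the hormone can hold a DELLA protein, a repressor of growth. The F-box protein SLY1 then directs the DELLA protein to degradation. The 3 Arabidopsis receptors overlap in function, and gibberellin is known to lower the transcripts of receptor genes through feedback. In etiolated seedlings the hormone promotes hypocotyl elongation and helps to keep the apical hook closed, and ethylene acts on the same organs.

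The arrays gave median intensities between 833 and 980 over all probe sets, in scaled linear units, and the number of arrays limits the precision. RTE1, a regulator of the ethylene receptor ETR1 that responds to ethylene, served as a check of the labels and had 12680.1 ± 2741 in ethylene and 3036 ± 401 in air (mean ± SD, n = 4 each), with no overlap between the groups. Of 36 markers of etiolated seedlings, light-grown leaves, roots and seeds, 5 had a named probe set. None of these was at 0 on every array, but the lowest intensity of any probe set was 0.3 to 1.1, so this does not show expression. The etiolated seedling markers PORB, a light-dependent chlorophyll synthesis enzyme, and ICL, of seed oil use, had a summed intensity of 102677 to 175606 in ethylene and 81119 to 123907 in air.

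Under ethylene GID1A was dimmer, and GID1B and GID1C were brighter, than in air, but no member passed the test across all probe sets. GID1A was at 0.75 times its level in air, GID1B at 1.28 times and GID1C at 1.35 times. The ratios of GID1C and of GID1B to GID1A did not overlap between the groups, and the same was true of the ratio to GID1A for 14.8% of all other probe sets.

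The GID1A probe set had intensities of 2511, 3016, 2159 and 2107 on ethylene 1-1, 1-2, 2-1 and 2-2, against 2869.5, 3543, 2923 and 3602 on air 1-1, 1-2, 2-1 and 2-2. Ethylene 1-2 was the one ethylene array that reached the range of the air arrays, so the groups overlapped. The means were 2448 ± 419 in ethylene and 3234 ± 392 in air (SD, n = 4 each). The log2 difference, on the scale of log2(intensity + 16) used throughout, was −0.41 (SE 0.16, 95% interval −0.77 to −0.04), or 0.75-fold, with a limma adjusted p of 0.279 and an unadjusted p of 0.0319. In a bulk seedling sample, fewer cells that express a gene and less of its RNA per cell cannot be told apart.

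GID1B had 3529, 3475, 2533 and 2335 on ethylene 1-1, 1-2, 2-1 and 2-2, against 2034, 2825, 2240.1 and 2088 on air 1-1, 1-2, 2-1 and 2-2. The brightest air array, air 1-2, lay above both ethylene arrays of experiment 2. The means were 2968 ± 622 in ethylene and 2297 ± 363 in air (SD, n = 4 each). The log2 difference was 0.36 (SE 0.19, 95% interval −0.06 to 0.77), or 1.28-fold, with a limma adjusted p of 0.46 and an unadjusted p of 0.084.

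GID1C had 2142, 2344, 1735 and 1379 on ethylene 1-1, 1-2, 2-1 and 2-2, against 1287, 1553, 1316 and 1341 on air 1-1, 1-2, 2-1 and 2-2. Ethylene 2-2 was below air 1-2, and the other ethylene arrays were above every air array. The means were 1899.9 ± 429.7 in ethylene and 1374 ± 121 in air (SD, n = 4 each). The log2 difference was 0.44 (SE 0.19, 95% interval 0.02 to 0.86), or 1.35-fold, with a limma adjusted p of 0.329 and an unadjusted p of 0.0436. An intensity depends on the probes of its own probe set, so the levels of the 3 genes were not ranked against each other.

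**Figure D1:**
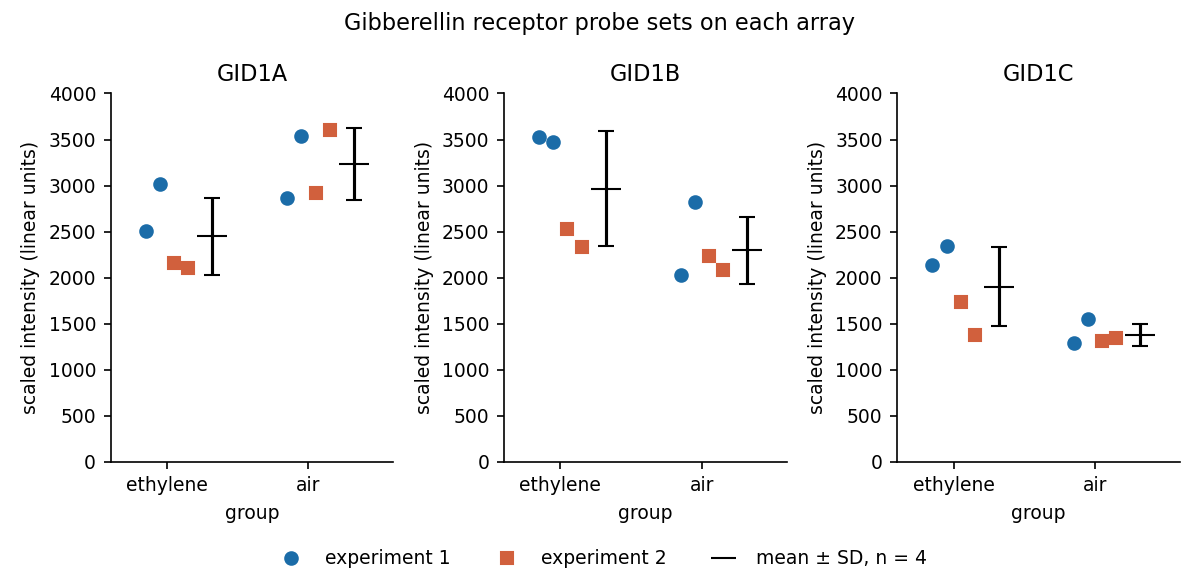
Scaled intensity (linear units, axis from 0) of GID1A, GID1B and GID1C on each array, ethylene left of air, with experiments marked by colour and shape and black bars for the mean ± SD (n = 4). GID1A has its mean at 2448 in ethylene and 3234 in air, while GID1B and GID1C have the higher mean in ethylene, and in each panel the groups overlap.

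Of the 3 members, 0 passed at a limma adjusted p under 0.05, where 4.11% of the 15922 probe sets tested did, and 2 had an unadjusted p under 0.05, where 14% did. With each array centred on its median neither was under 0.05, at 0.0614 for GID1A and 0.0633 for GID1C in limma. The median log2 difference of all probe sets tested was 0.01. A larger absolute difference than that of GID1A was found in 21.8% of them, than that of GID1B in 26.2% and than that of GID1C in 19.5%. Groups without overlap were found in 10.5% of probe sets and in 0 of the 3 members. Each member taken alone was therefore within the range common on these arrays.

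The labels give both groups the same 2 experiments, and the experiment was added to the model as a block. With the block the standard errors were 0.14 for GID1A, 0.14 for GID1B and 0.16 for GID1C, and the 95% intervals were −0.71 to −0.10, 0.05 to 0.66 and 0.10 to 0.77 in that order. None of these intervals held 0, and the unadjusted p was 0.0126 for GID1A, 0.0256 for GID1B and 0.0138 for GID1C. Such a p under 0.05 was found for 23.3% of all probe sets. The limma adjusted p was 0.0861 for GID1A, 0.141 for GID1B and 0.092 for GID1C, so none passed, where 11.7% of all probe sets did. With the 2 replicas of an experiment and group as a random block instead, which allows for replicas that are alike, the standard errors were 0.22, 0.24 and 0.25 and no member had an unadjusted p under 0.05 (limma, 0.0937 for GID1A, 0.161 for GID1B and 0.102 for GID1C). The experiment block was also run with 1 array left out, a choice made after seeing the data. In that model GID1A passed without air 1-1 (limma adjusted p = 0.0381) or ethylene 1-2 (0.0492), and GID1C passed without ethylene 2-2 (0.042).

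Within experiment 1 the log2 differences between ethylene and air were −0.21 for GID1A, 0.54 for GID1B and 0.66 for GID1C (SE 0.19, 0.19 and 0.21). Within experiment 2 they were −0.60, 0.17 and 0.22 with the same errors. The limma adjusted p lay between 0.093 for GID1C and 0.648 for GID1A in experiment 1, and between 0.091 for GID1A and 0.745 for GID1B in experiment 2. Thus 0 of 3 passed in either experiment, where 6.19% of all probe sets passed in experiment 1 and 6.26% in experiment 2. The larger difference of GID1A was thus in experiment 2, and the larger differences of GID1B and GID1C were in experiment 1. Every ethylene array of an experiment was above every air array of that experiment for GID1B and for GID1C, as in 9.72% of all probe sets. For GID1A 1 of the 8 such pairs of arrays had the higher value in ethylene.

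The effect in experiment 2 minus the effect in experiment 1 was −0.39 for GID1A (95% interval −0.97 to 0.19), −0.38 for GID1B (−0.97 to 0.21) and −0.44 for GID1C (−1.08 to 0.20). No member passed (limma adjusted p of 0.863, 0.871 and 0.862), and 0 of 15922 probe sets did, with 5.76% at an unadjusted p under 0.05. These 3 values were alike in sign and size. In the air arrays the log2 difference of experiment 2 minus experiment 1 was 0.03 for GID1A (95% interval −0.39 to 0.44). It was −0.15 for GID1B (−0.56 to 0.27) and −0.09 for GID1C (−0.54 to 0.36). In the ethylene arrays the same differences were −0.37, −0.52 and −0.53, with limma adjusted p of 0.225, 0.0898 and 0.111. The gap between the 2 groups in these values is the same difference of effects, for which no member passed. Averaged over both groups, experiment 2 minus experiment 1 was −0.17 for GID1A, −0.34 for GID1B and −0.31 for GID1C, and none passed (limma adjusted p of 0.362, 0.0793 and 0.13), while 30.6% of all probe sets did.

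**Figure D2:**
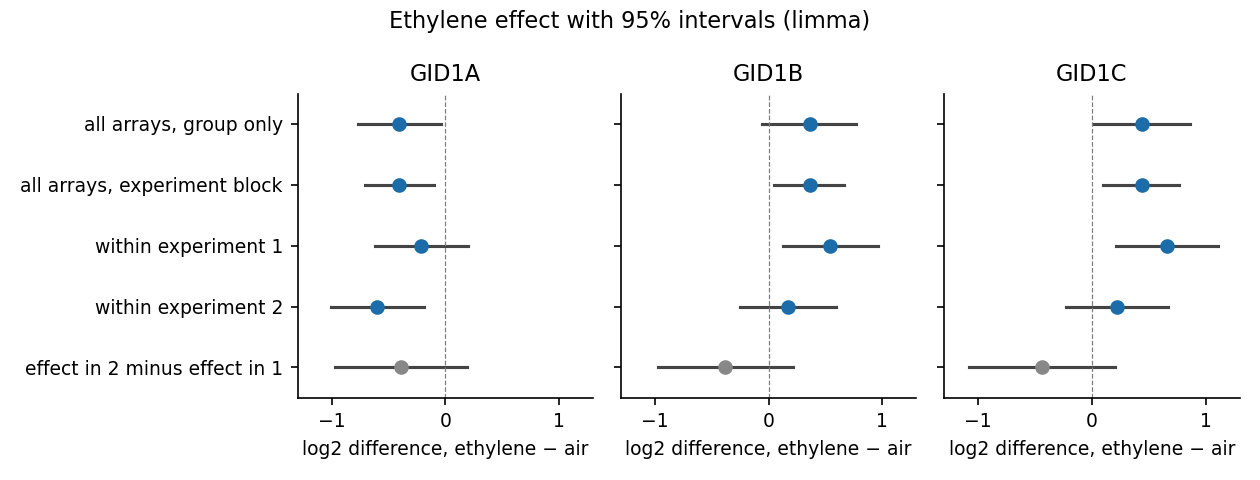
Log2 difference between ethylene and air (points, with 95% limma intervals as lines) for each receptor gene over all arrays without and with the experiment as a block, within each experiment, and, in grey, the effect in experiment 2 minus that in experiment 1. The 4 differences of each gene share 1 sign, negative for GID1A and positive for GID1B and GID1C, and the grey points lie between −0.44 and −0.38. The 2 differences over all arrays are equal by design and are the mean of the 2 within experiments, so only the latter are separate results.

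The paralogues were then compared with each other inside each array, as the log2 ratio of 2 probe sets. A scaling factor of the whole array nearly cancels in such a ratio. Its own value depends on the probes and has no meaning as a relative abundance, so only its change between groups was read. A changed ratio shows unequal change, not which gene moved.

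The log2 ratio of GID1C to GID1A was −0.23, −0.36, −0.31 and −0.61 on ethylene 1-1, 1-2, 2-1 and 2-2, against −1.15, −1.18, −1.14 and −1.42 on air 1-1, 1-2, 2-1 and 2-2. Every ethylene array was above every air array. The group means were −0.38 ± 0.16 in ethylene and −1.22 ± 0.13 in air (SD, n = 4 each), a difference of 0.84 (SE 0.10) or 1.80-fold, and inverting the exact permutation test gave an interval of 0.54 to 1.18. The exact two-sided permutation p was 0.0286, the smallest that 70 assignments allow, and 0.0429 after Benjamini-Hochberg adjustment over the 3 pairs of paralogues. That test takes all 8 arrays as exchangeable and does not allow for experiments or for replicas that are alike. Permuted only within experiments, the exact p was 0.0556. The difference was 0.87 in experiment 1 and 0.82 in experiment 2.

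The log2 ratio of GID1B to GID1A was 0.49, 0.20, 0.23 and 0.15 on ethylene 1-1, 1-2, 2-1 and 2-2, against −0.49, −0.33, −0.38 and −0.78 on air 1-1, 1-2, 2-1 and 2-2. The groups did not overlap here either. The means were 0.27 ± 0.15 in ethylene and −0.50 ± 0.20 in air (SD, n = 4 each), a difference of 0.76 (SE 0.13) or 1.70-fold, with an interval of 0.48 to 1.27 and the same exact permutation p of 0.0286 (0.0429 adjusted). It was 0.76 in experiment 1 and 0.77 in experiment 2.

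The log2 ratio of GID1C to GID1B was −0.72, −0.57, −0.54 and −0.75 on ethylene 1-1, 1-2, 2-1 and 2-2, against −0.65, −0.86, −0.76 and −0.63 on air 1-1, 1-2, 2-1 and 2-2. These values overlapped, while the ratio to GID1B of 13.9% of the other probe sets did not. The difference was 0.08 (SE 0.07), with an interval of −0.12 to 0.31 and an exact two-sided permutation p of 0.286, so that a difference in response between GID1B and GID1C was not detected, and one of up to 0.31 in log2 was not excluded by the interval.

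**Figure D3:**
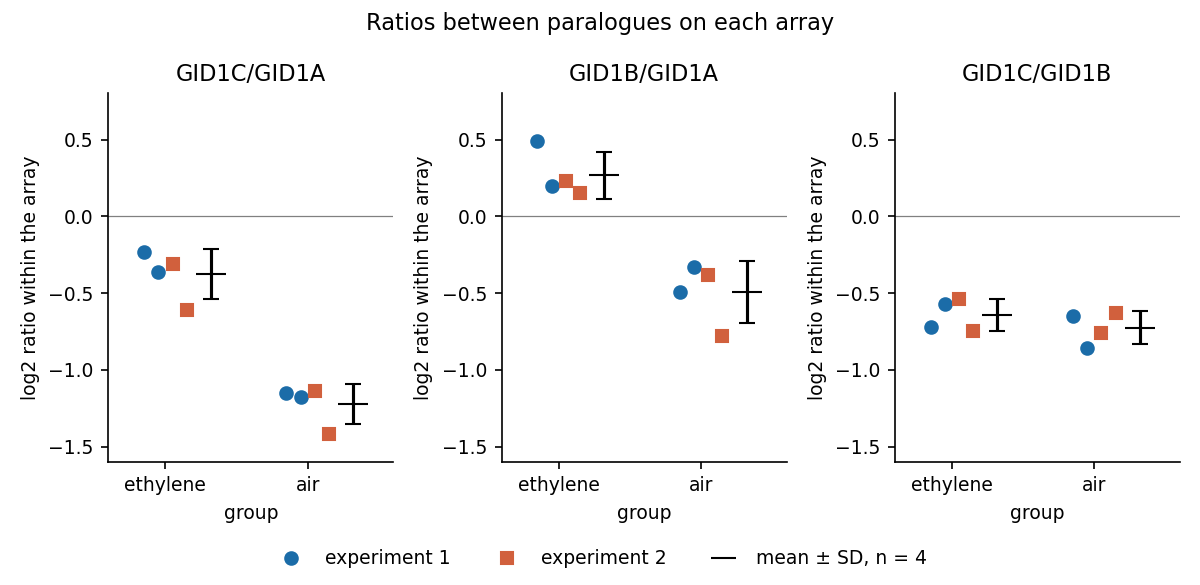
Log2 ratio between paralogues inside each array, ethylene left of air, with experiments marked by colour and shape and black bars for the mean ± SD (n = 4). The ratios of GID1C to GID1A and of GID1B to GID1A are higher on all 4 ethylene arrays than on any air array (means −0.38 and 0.27 in ethylene, −1.22 and −0.50 in air), and the ratio of GID1C to GID1B overlaps between groups.

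These separations were read against the rest of the array. The ratio to GID1A did not overlap between groups for 14.8% of the 15921 other probe sets. Of the same 15921, 8.89% had a larger absolute difference in this ratio than GID1C and 12.7% a larger one than GID1B. The opposite signs of the receptor genes were also known from earlier results on the same arrays when the paralogues were chosen, so the p-values of the ratios are not independent support. The ratios of GID1C and of GID1B to GID1A share that gene, so they are not separate results. Permuting only within experiments gave an exact p of 0.0556 for both ratios to GID1A, which is the smallest that 36 assignments allow, and 0.333 for GID1C to GID1B.

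GID1B and GID1C also followed each other from array to array. Their log2 values had r = 0.947 over the 8 arrays (rho = 0.929), and r = 0.932 after the mean of each experiment was removed. Of 8675 other named probe sets GID1B was the third most like GID1C, and GID1C was number 8 in likeness to GID1B. With GID1A the values were r = −0.145 for GID1C and −0.074 for GID1B. These r values describe 8 arrays that share groups, experiments and scaling, and no test was made of them.

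**Figure D4:**
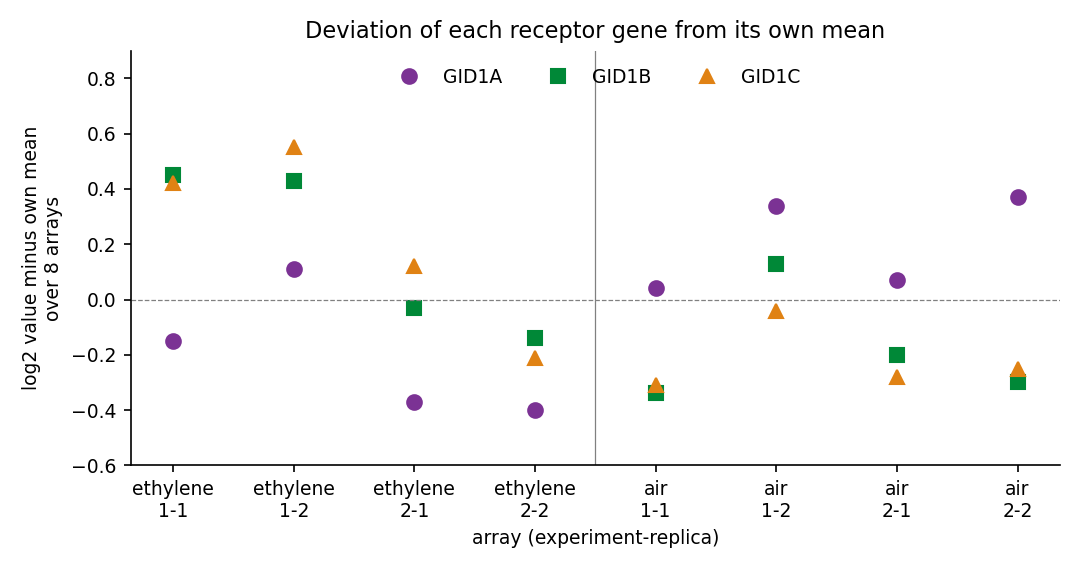
Deviation of the log2 value of each receptor gene from its own mean over the 8 arrays, with the ethylene arrays left of the air arrays. GID1B (squares) and GID1C (triangles) lie close together on most arrays, with r = 0.947, whereas GID1A (circles) is below both on all ethylene arrays and above both on all air arrays.

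The genes most like each member were the 5 with the highest r over the 8 arrays on the log2 scale. The difference between groups enters r, so these genes tend to change in the member's direction through the choice itself. Their p-values are therefore not independent support, and 4.11% of all probe sets passed (11.7% with the experiment as a block). For GID1A the 5 genes were AT1G71170 (r = 0.945), AT1G14330 (0.937), AT1G33470 (0.935), AT3G60680 (0.925) and AT1G68440 (0.924), which are named here by locus only. AT1G33470 had a log2 difference of −1.04, with 709 ± 189.8 in ethylene and 1443 ± 166 in air (limma adjusted p = 0.0229, SD, n = 4 each), and AT1G68440 one of −0.75, with 4953 ± 1092 in ethylene and 8216 ± 738 in air (limma adjusted p = 0.0336). With 1 array left out, AT1G33470 passed in 3 of 8 cases (limma adjusted p of 0.0178 to 0.0703) and was lost without air 1-2, 2-1 or 2-2 or ethylene 2-1 or 2-2. AT1G68440 passed in 2 of 8 (0.0175 to 0.0953), without air 1-1 or ethylene 1-2. Neither passed with replicas as a random block (limma adjusted p of 0.126 and 0.136) or in experiment 1 alone (0.197 and 0.259), and AT1G68440 did not pass with median centring (0.0665) or without the intensity trend (0.061). The other 3 genes had differences of −0.42 to −0.22 and did not pass. AT1G14330 passed with the experiment as a block (limma adjusted p = 0.0354), but not when replicas were averaged first (0.0794), with numbered pairs as the block (0.0538) or with replicas as a random block (0.589).

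For GID1B the most like were AT3G12290 (r = 0.979, or 0.877 after quantile normalization), AT2G27900 (0.961), AT5G17190 (0.958), AT2G31670 (0.957) and AT1G33030 (0.955). Their log2 differences lay between 0.19 and 0.41 and none passed, with or without the block. For GID1C they were AT2G29620 (r = 0.971), AT1G28190 (0.966), GID1B itself, AT5G58110 (0.944) and AT4G15545 (0.940). AT4G15545 had 32068 ± 10462 in ethylene and 18587 ± 3004 in air (SD, n = 4 each), a log2 difference of 0.74 that did not pass (limma adjusted p = 0.129) but did with the experiment as a block (0.000571), and not with replicas as a random block (0.262). The differences of the other 3 loci were 0.76, 0.56 and 0.29 and did not pass. An r of at least 0.9 was found for 14, 26 and 22 of the 8675 named probe sets in the case of GID1A, GID1B and GID1C.

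Around the receptors, 91 further genes of gibberellin synthesis, inactivation, signalling, transport and response and of related carboxylesterases were listed. A probe set names 12 of them alone, and 10 of these were above the filter on low values. None passed in either direction, where 4.11% of all probe sets did, and none passed in the model with blocks (11.7% of all). Their median log2 difference was 0.10, against 0.01 for all probe sets tested. Of the 10 differences 7 were positive, as were 8207 of the 15922 over all probe sets tested. No listed enzyme of gibberellin synthesis (14 genes) or inactivation (11) and no DELLA gene had a named probe set, and these are not analysed here.

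Downstream of the receptors, SLY1, the F-box protein that recognises DELLA proteins, had 3541 ± 433 in ethylene and 3379 ± 373 in air, a log2 difference of 0.07 (95% interval −0.26 to 0.39, limma adjusted p = 0.923). Its relative SNE differed by −0.05. SPY and SEC encode glycosyltransferases that attach fucose and N-acetylglucosamine to DELLA proteins. SPY had 4006 ± 614 in ethylene and 3316 ± 412 in air, a difference of 0.27 (limma adjusted p = 0.547), and SEC differed by 0.03 (adjusted p = 0.962). In the model with group alone, the intervals for SLY1 and SEC leave out changes as large as 0.41 in either direction. Within experiment 1 they do not, with upper limits of 0.43 for SLY1 and 0.52 for SEC. With replicas as a random block the standard error rose to 0.19 for both.

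Among transporters, NPF3.1, which moves gibberellin into cells, had 526, 344, 467 and 453 on ethylene 1-1, 1-2, 2-1 and 2-2, against 255, 333, 236 and 215 on air 1-1, 1-2, 2-1 and 2-2. The groups did not overlap, as for 10.5% of all probe sets. Its log2 difference of 0.75 (95% interval 0.18 to 1.33) did not pass (limma adjusted p = 0.179, or 0.109 with the experiment as a block). SWEET13, a sugar transporter that can also carry gibberellin, differed by 0.47 (adjusted p = 0.643). NPF4.1 and SWEET14 were below the filter on low values, with means of 172 and 153 in ethylene and 179 and 107 in air.

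XERICO, a RING protein gene known as a DELLA target, differed by 0.13 (limma adjusted p = 0.914). The carboxylesterase genes CXE16, CXE18 and CXE20, of the family from which the receptors are derived, differed by −0.06, 0.17 and −0.44, and their adjusted p lay between 0.728 and 0.942.

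**Figure D5:**
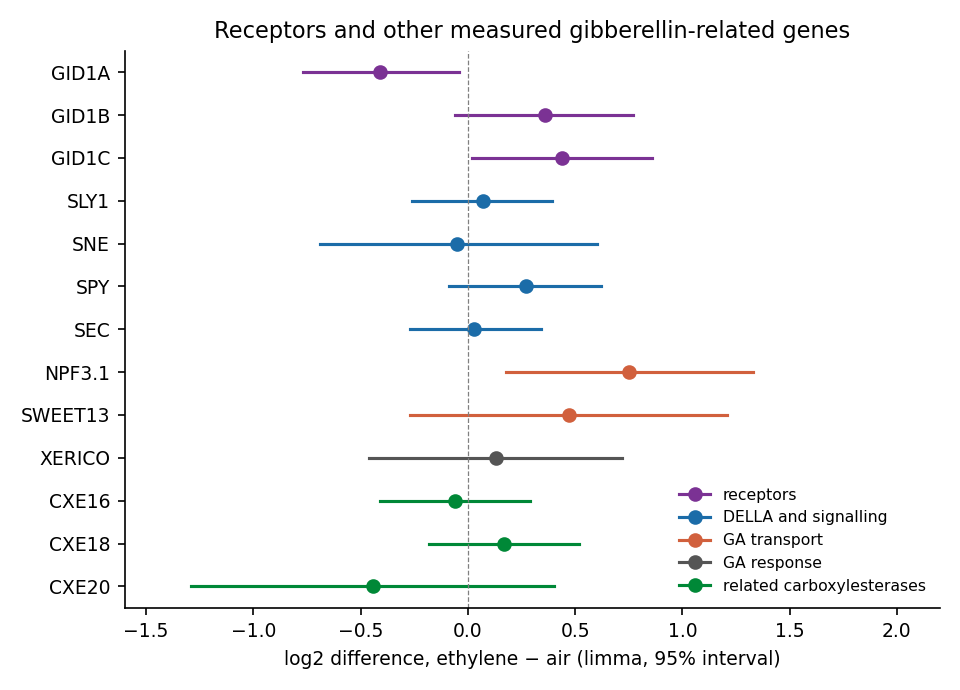
Log2 difference between ethylene and air (points, with 95% limma intervals as lines) for the 3 receptor genes and the 10 other gibberellin-related genes tested, coloured by role. The intervals of GID1A, GID1C and NPF3.1 do not include 0 before adjustment for the number of probe sets, and none of the 13 genes passed after it.

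The tissue markers were read for their own differences between ethylene and air on the same arrays. Of 10 root markers 2 were measured, EXPA7 and EXPA18, expansins of root hairs. Their summed intensity was 5572 to 6860.0 in ethylene and 3163 to 5317 in air, and EXPA7 had a log2 difference of 0.82 (limma adjusted p = 0.0483). That call was lost when any array other than air 2-1 was left out, with an adjusted p of 0.0687 to 0.135 and log2 differences of 0.68 to 0.89. It was also lost in each experiment alone (0.0969 and 0.065), with replicas as a random block (0.295), with median centring (0.0512), with no filter on low values (0.064) and without the intensity trend (0.0625). The call was kept with the experiment as a block (limma adjusted p = 0.00622), with numbered pairs as the block (0.00999) and when replicas were averaged first (0.000723). EXPA18 had a difference of 0.44 that did not pass (limma adjusted p = 0.266). It passed with the experiment as a block (0.0452) but not when replicas were averaged first (0.0575). PSAN, a photosystem I subunit and the only one of 13 leaf markers measured, had 5431 to 6983 in ethylene and 4412 to 6158 in air, and none of 8 seed markers was measured. PORB had a log2 difference of 0.60 that did not pass (limma adjusted p = 0.172) but did with the experiment as a block (0.0247), and not with replicas as a random block (0.601). ICL, like PORB a marker of etiolated seedlings, had a difference of 0.26 that did not pass (limma adjusted p = 0.746). The part of these markers in the differences of the receptor genes was not tested.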

How the data were processed

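The deposited table holds linear intensities, already processed by the authors, of 22810 probe sets on 8 arrays. Per the labels the arrays hold total RNA of seedlings. How the authors summarised and scaled the intensities is not given in the sources used here, but the mean without the highest and lowest 2% was 2500.2 on every deposited array. No detection calls were given. Groups came from the sample titles (the free text of ethylene 2-2 gives its replica unclearly).

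Intensities were converted to log2(intensity + 16), which understates changes of dim probe sets. The 64 control probe sets and the 30% with the lowest mean were left out, and 15922 were tested with limma 3.58.1 in R 4.3.3 (lmFit, and eBayes with an intensity trend), with group as the only term and Benjamini-Hochberg adjustment over all of them. The members and lists were chosen with earlier results of these data known. A model with a mean for each experiment and group gave effects within experiments and their difference. Ratios between paralogues were compared by exact two-sided permutation of the arrays (scipy 1.17.1), and an interval holds every shift that this test did not reject at 0.05. The model was also run on simulated data with independent arrays, no experiment effect and changes larger than those of the receptor genes. That run did not cover alike replicas or smaller changes.

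Per the labels, arrays of both groups belong to the same 2 experiments. Deviations from group means correlated across probe sets with r = 0.327, 0.394, 0.593 and 0.464 for same-numbered arrays of ethylene and air. The other pairs from the same experiment had r = 0.502, 0.345, 0.528 and 0.280, and pairs from different experiments had −0.551 to −0.252. The experiment was therefore used as a block in an alternative. Other alternatives were pseudocounts of 1 and 64, median centring, quantile normalization, other filters, other blocks, each experiment alone, no intensity trend, and leaving out each array.

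Named genes were the receptors, the 5 genes most like each by r, the list members with a probe set naming them alone, and RTE1. Of the 13513 probe sets naming 1 gene in the array annotation, 13436 matched the RefSeq table of TAIR10.1 by gene number. Names are those of the RefSeq table where it gave one, and those of the array annotation otherwise. No genome build is given for the arrays, so no coordinates are reported.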

Additional observations from a re-analysis of the deposited data

Results flagged for a closer look

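For the log2 ratio of GID1C to GID1A in air, array 2-2 (−1.42) lay far from the other air arrays (−1.18 to −1.14), with a gap of 0.855 of the group's range, above Dixon's critical value for a group of 4. It was the only one of 38 groups of 4 arrays examined to pass this limit, and chance alone is expected to flag about 1 group in 20. Without air 2-2 the difference of this ratio between ethylene and air was 0.78, in place of 0.84.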

How the results depend on the processing

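The log2 differences of the members kept their direction under all alternatives run, from −0.60 to −0.21 for GID1A, 0.17 to 0.54 for GID1B and 0.22 to 0.66 for GID1C, the ends being single experiments. None passed at an adjusted p under 0.05 except, with the experiment as a block, GID1A without air 1-1 (−0.51) or ethylene 1-2 (−0.50) and GID1C without ethylene 2-2 (0.55), where the cause was not tested. In all 655 probe sets were called, against 1859 when experiments were blocked, 1776 with the numbered pairs as a block, 2002 with averaged replicas and a block, 249 with replicas as a random block and 1028 in experiment 2 alone. It was 410 to 519 with 1 array left out, with 429 without air 1-2, 411 without air 2-1, 420 without air 2-2 and 410 without ethylene 1-2. Blocking changed no other call of a receptor or gibberellin list gene. The ratio differences ranged from 0.78 to 0.92 for GID1C to GID1A, 0.67 to 0.82 for GID1B to GID1A and 0.04 to 0.12 for GID1C to GID1B. With 1 array left out the exact permutation p cannot go below 0.0571. Another 4 small differences changed sign, the causes not tested: SNE with quantile normalization (0.01), in experiment 1 alone (0.21) and within −0.22 to 0.11 with 1 array left out, SEC in experiment 2 alone (−0.09) and within −0.03 to 0.11, CXE16 in experiment 1 alone (0.04) and within −0.14 to 0.04, and XERICO within −0.03 to 0.31. Without detection calls, what background adds to the dim SNE, NPF3.1 and SWEET13 is unknown.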
